A study of Mus musculus with 10 samples.

Results

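The 10 genes described here mark the cells of small blood vessels in the brain. *Cldn5*, *Pecam1*, *Flt1*, *Kdr*, *Slco1a4*, *Abcb1a* and *Ly6c1* are markers of endothelial cells, and *Pdgfrb*, *Rgs5* and *Vtn* are markers of pericytes. They were taken by their GENCODE M21 symbols from the 53447 genes listed in each library, and all 10 were found. Their RNA was measured in the whole cerebellum of 5 control mice and 5 homozygous *Dscam* del17/del17 mice (labelled DscamKO), all of strain BALB/c and aged P21, with 1 library per mouse. The mutant allele is a spontaneous loss-of-function deletion within an exon of *Dscam*, a gene for a cell adhesion molecule of neurons. It is present in every cell of the mutants and is not limited to a cell type, and the controls in the study were littermates. The study used mice of both sexes. The question addressed is whether the loss of *Dscam* was accompanied by a difference in these vascular transcripts. The values are TPM, a relative transcript abundance in which the reads of a gene are divided by transcript length and scaled per library. Read numbers cannot be recovered from this unit, and sequencing depth is therefore unknown.

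Endothelial cells line the capillaries and, in the brain, are sealed by tight junctions and fitted with transporters that decide what passes from blood to tissue. Pericytes sit on the outside of the same capillaries within a shared basement membrane and are held there by the signal from endothelial PDGF-B to the receptor PDGFRβ. Endothelial growth and survival depend on VEGF and its receptors, and the barrier properties depend on Wnt signals from neural cells. Vascular cells are a minority in the cerebellum, so in whole tissue fewer vascular cells and less RNA per vascular cell cannot be told apart.

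In the libraries, the listed TPM summed to 684771 to 838532. *Dscam* was below every control in every mutant library, with 6.29 to 9.05 TPM in the controls and 3.05 to 5.42 TPM in the mutants. Its log2 fold change was -0.825, with an adjusted p of 0.779 from limma. Cerebellar markers were high in all libraries, with *Pcp2* of Purkinje cells at 1380 TPM or more and *Neurod1* of granule cells at 295 TPM or more (lower in all 5 mutants than in any control). The 9 genes listed as markers of neighbouring forebrain and hindbrain summed to 6.08 to 14.5 TPM in the controls and 9.01 to 19.2 TPM in the mutants. Among them, *Hoxa5* and *Hoxb5* were listed at 0 in all 10 libraries. Of these 9, 4 were tested and all 4 had a log2 fold change above 0, as had 56.0% of all genes tested. Their median, with *Dbh* included, was 0.80, and 0.44 without control replicate 5. *Dbh*, an enzyme of noradrenaline synthesis, was at 0 to 0.458 TPM in the controls and 0.685 to 1.45 TPM in the mutants, without overlap. Of all genes tested, 0.419% were higher in this way. *Dbh* reached the level for testing through the mutants alone, so its sign could not have been negative. *Tph2* and *Slc6a5* had log2 fold changes of 1.07 and 0.54 and overlapped. *Slc6a5* had the highest level of the 9, with a mean of 7.83 TPM over all libraries, and neurons of the cerebellum transcribe it as well. The sums are therefore not a measure of neighbouring tissue alone. The part of neighbouring tissue in the values of the vascular genes was not tested. Control replicate 5 stands apart. It had 15623 genes at 0.5 TPM or more, while the remaining 9 had 17101 to 17763, and the 13 mRNAs encoded by mitochondrial DNA made up 15206 TPM, compared with 23124 to 44973 TPM elsewhere. Values without this library are given below for many of the genes and lists, but not for every gene that it moved.

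All 10 vascular genes reached 0.5 TPM in every library, and none differed between the genotypes past the threshold of an adjusted p of 0.05. The mutated gene *Dscam* did not pass this threshold either (limma adjusted p = 0.779), so a gene that fails it may still differ. Over all 17168 genes tested with limma on log2(TPM + 0.1), 0.0% passed this threshold, and 5.55% (953 genes) had an unadjusted p under 0.05, as did *Vtn* alone among the 10. One gene of the 10, *Vtn*, was lower in all 5 mutants than in any control, and no gene was higher in all 5. Among all genes tested, 0.798% were lower in this way and 0.419% higher. Leaving out control replicate 5, *Vtn* was again the gene without overlap, with 1.56% of all genes lower and 0.536% higher. Of the 10 log2 fold changes (mutant minus control), 5 were above 0 and 5 below, with a median of 0.06. The median of all genes tested was 0.05, and 44.0% of them were below 0. Without control replicate 5, 8 of the 10 were below 0 and their median was -0.15, while 56.0% of all genes were below 0 and their median was -0.04. Without control replicates 3 and 5, all 10 were below 0 (median -0.20), as were 66.3% of all genes.

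**Figure D1:**
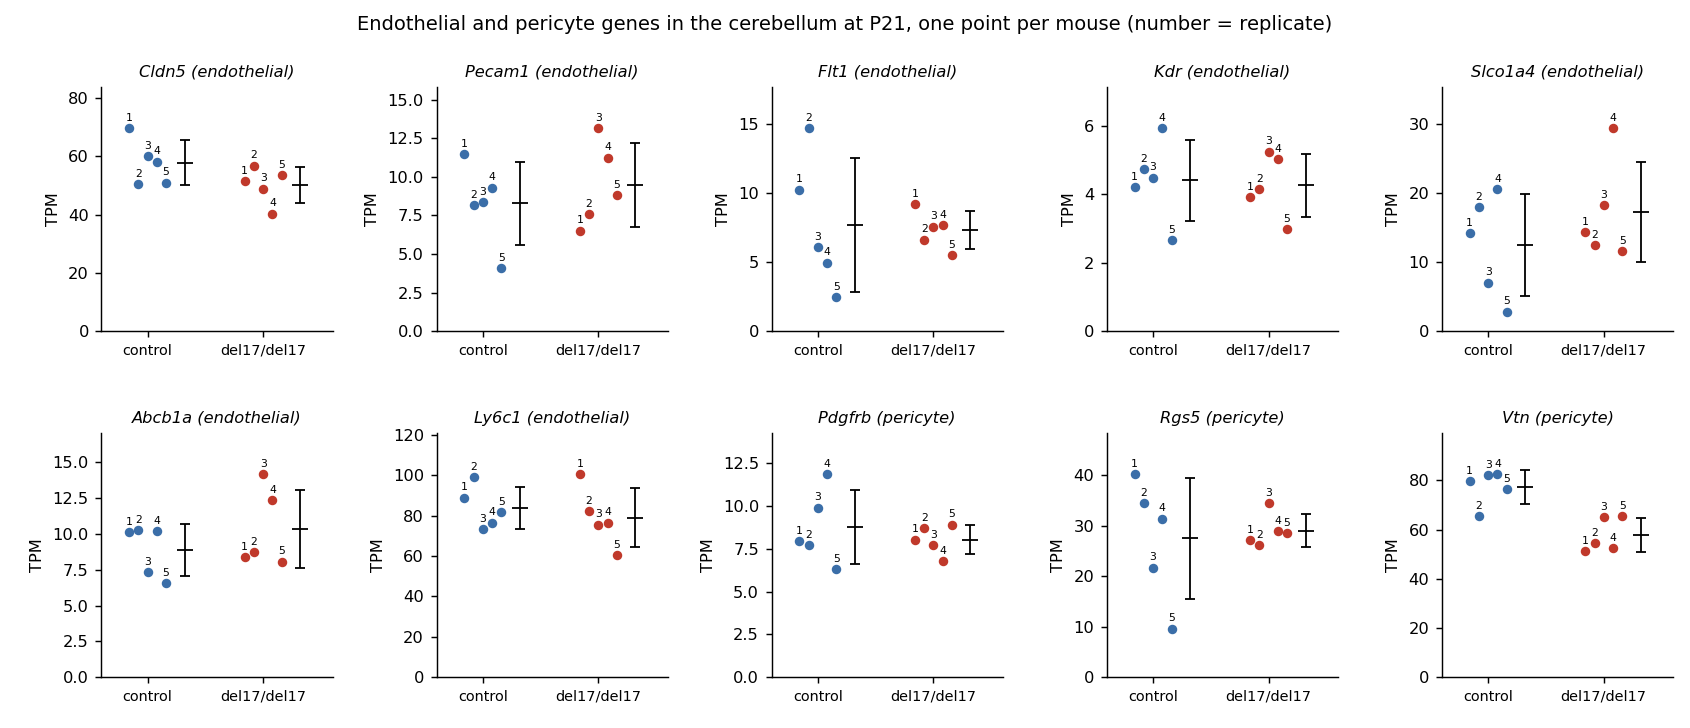
TPM of the 7 endothelial and 3 pericyte genes in the P21 cerebellum; each numbered point is 1 mouse (its replicate), bars give mean and SD over 5 mice, and vertical axes start at 0. The genotypes overlap for 9 of the 10 genes, and for *Vtn* the highest mutant value (65.5 TPM) lies just below the lowest control value (65.6 TPM).

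The 10 genes cover a wide range of levels. Averaged over the 10 libraries, *Ly6c1* was highest at 81.5 ± 12.2 TPM (SD, n = 10), followed by *Vtn* at 67.5 ± 12.2 TPM and *Cldn5* at 54.0 ± 7.82 TPM. *Rgs5* had 28.3 ± 8.37 TPM and *Slco1a4* 14.9 ± 7.38 TPM. The lower group held *Abcb1a* at 9.62 ± 2.33 TPM, *Pecam1* at 8.87 ± 2.63 TPM, *Pdgfrb* at 8.40 ± 1.59 TPM, *Flt1* at 7.51 ± 3.36 TPM and *Kdr* at 4.33 ± 0.997 TPM. *Cldn5* exceeded *Rgs5* in all 10 libraries, whereas *Abcb1a*, *Pecam1*, *Pdgfrb* and *Flt1* did not differ from their neighbours in this order beyond their spread, as each of the first 3 exceeded the next in 4 to 7 of the 10 libraries. *Ly6c1* exceeded *Vtn* in 7 libraries and *Vtn* exceeded *Cldn5* in 8.

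*Vtn* encodes vitronectin, a secreted protein of blood plasma and extracellular matrix that brain pericytes transcribe. It lies on the plus strand of chromosome 11 at 78499091 to 78502324 (GRCm38), its longest coding transcript has 8 exons and 1744 bp, and no other annotated gene overlaps it. In control replicates 1 to 5 it was measured at 79.7, 65.6, 82.2, 82.6 and 76.4 TPM. In mutant replicates 1 to 5 it was measured at 51.3, 54.4, 65.0, 52.5 and 65.5 TPM. The genotypes did not overlap, although mutant replicates 3 and 5 came within 1 TPM of control replicate 2. The means were 77.3 ± 7.02 TPM (SD, n = 5) in the controls and 57.7 ± 6.94 TPM (SD, n = 5) in the mutants. This is a log2 fold change of -0.42 with a standard error of 0.11 and a 95% interval from -0.67 to -0.18. A two-sided permutation test over all exact divisions of the mice gave p = 0.0079, which is the lower limit for this number of mice, and limma gave an adjusted p of 0.779. In control replicate 5 *Vtn* was close to the other controls, and without this library the log2 fold change stayed in the range of -0.48 to -0.38 that was seen when any 1 library was left out.

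*Rgs5*, which encodes a regulator of G protein signalling and is among the most abundant pericyte transcripts, overlapped between the genotypes. Its values in control replicates 1 to 5 were 40.3, 34.5, 21.7, 31.4 and 9.59 TPM. In the mutants they were 27.2, 26.1, 34.5, 28.9 and 28.6 TPM. The controls spanned a far wider range than the mutants and enclosed all of them. The log2 fold change was 0.23 (95% interval -0.48 to 0.94; limma adjusted p = 0.871), -0.11 without control replicate 5 and -0.28 without control replicates 3 and 5. This interval includes the value of *Vtn*, and the difference between both genes was not tested. *Rgs5* is on the plus strand of chromosome 1 at 169655501 to 169695813, and its longest coding transcript has 5 exons and 4096 bp.

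*Pdgfrb*, the receptor that retains pericytes on capillaries, was measured at 7.97, 7.71, 9.91, 11.9 and 6.32 TPM in control replicates 1 to 5. The mutants had 8.04, 8.71, 7.70, 6.80 and 8.91 TPM and lay within the range of the controls. For *Pdgfrb* the log2 fold change was -0.10 (95% interval -0.55 to 0.35; limma adjusted p = 0.917). It was -0.20 without control replicate 5 and 0.02 without control replicate 4, the control with the highest value.

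The sequences before the starts of *Vtn* and *Rgs5* are printed because these 2 pericyte genes differed in their pattern over the libraries, and those of *Flt1* and *Kdr* because they belong to paralogous receptors. They are the 250 bases before the RefSeq start in GRCm38.p6, at chr11:78498870-78499119 (plus strand), chr1:169655251-169655500 (plus strand), chr5:147726012-147726261 (minus strand) and chr5:75978456-75978705 (minus strand). The RefSeq and GENCODE M21 starts differ for *Vtn* and *Kdr*. In GENCODE M21 these genes start at 78499091 and, on the minus strand, at 75978458, so the end of each stretch lies inside the gene. Capitals mark matches, on either strand, to the ETS core GGAAG, the forkhead core TAAACA, the cyclic AMP response element TGACGTCA and the TATA box TATAAA, and overlapping matches run together.
*Vtn*: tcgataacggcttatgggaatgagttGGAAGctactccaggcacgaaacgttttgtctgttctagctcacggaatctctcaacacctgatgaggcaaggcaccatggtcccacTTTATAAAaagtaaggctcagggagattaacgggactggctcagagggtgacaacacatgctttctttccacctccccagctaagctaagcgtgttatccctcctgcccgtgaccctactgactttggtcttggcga
*Rgs5*: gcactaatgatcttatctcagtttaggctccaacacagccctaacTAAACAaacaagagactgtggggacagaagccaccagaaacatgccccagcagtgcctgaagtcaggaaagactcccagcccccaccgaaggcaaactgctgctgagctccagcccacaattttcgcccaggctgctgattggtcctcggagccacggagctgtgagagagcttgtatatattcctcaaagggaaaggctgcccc
*Flt1*: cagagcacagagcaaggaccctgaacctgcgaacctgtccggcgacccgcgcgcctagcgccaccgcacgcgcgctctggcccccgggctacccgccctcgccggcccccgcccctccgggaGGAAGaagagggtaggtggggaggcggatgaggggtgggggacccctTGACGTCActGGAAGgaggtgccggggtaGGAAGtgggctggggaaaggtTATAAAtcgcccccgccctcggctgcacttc
*Kdr*: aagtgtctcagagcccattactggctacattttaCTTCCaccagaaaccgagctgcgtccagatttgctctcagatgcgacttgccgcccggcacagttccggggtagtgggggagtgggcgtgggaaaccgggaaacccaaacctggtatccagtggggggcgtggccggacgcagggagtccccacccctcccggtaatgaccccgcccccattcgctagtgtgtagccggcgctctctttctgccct
Of the 10 genes, 8 had an entry in this table, and *Pecam1* and *Pdgfrb* had none. The ETS core was in 6 of the 8 and in 64.1% of all 32851 promoters of this length. The forkhead core was in 4 of the 8, namely *Slco1a4*, *Abcb1a*, *Ly6c1* and *Rgs5*, and in 12.0% of all promoters. The entry of *Abcb1a*, with matches to the ETS and forkhead cores, is at chr5:8566841-8567090. In GENCODE M21 this gene starts at 8660077, so its entry does not directly precede the transcript used here. The TATA box was in *Vtn*, *Flt1* and *Ly6c1* and in 12.4% of all promoters, and the cyclic AMP response element was in *Flt1* and in 1.55% of all promoters. These are matches of letters and not measured binding sites.

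Among the endothelial genes, *Cldn5* encodes claudin-5, the main claudin of the tight junctions that seal brain capillaries. It was measured at 69.7, 50.4, 60.0, 58.2 and 51.0 TPM in control replicates 1 to 5. In the mutants it had 51.4, 56.8, 48.9, 40.3 and 53.6 TPM. The highest value was a control and the lowest a mutant, and 3 of the 5 mutants lay above the lowest control. Claudin-5 mRNA had a log2 fold change of -0.20 (95% interval -0.48 to 0.08; limma adjusted p = 0.779), with a range of -0.25 to -0.13 when any 1 library was left out. *Cldn5* is a gene of 1 exon on the plus strand of chromosome 16, the chromosome of *Dscam*, at 18776847 to 18778262. *Pecam1*, which encodes the adhesion molecule PECAM-1 at endothelial cell contacts, spanned 4.06 to 11.5 TPM in the controls and 6.51 to 13.2 TPM in the mutants. Its log2 fold change was 0.22 (95% interval -0.43 to 0.87), and -0.01 without control replicate 5.

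*Flt1* and *Kdr* encode VEGFR1 and VEGFR2, of which VEGFR2 is the main signalling receptor for VEGF-A and VEGFR1 binds the ligand tightly with weaker signalling. Both lie on the minus strand of chromosome 5, *Flt1* at 147561604 to 147726011 and *Kdr* at 75932827 to 75978458, and the longest coding transcript of each has 30 exons. *Flt1* was measured at 10.3, 14.7, 6.10, 4.96 and 2.44 TPM in control replicates 1 to 5. The mutants had 9.21, 6.64, 7.58, 7.68 and 5.53 TPM, inside the range of the controls. The spread of *Flt1* in the controls was the largest among the 10 genes, with a coefficient of variation of 62.9%, against 18.6% in the mutants. The log2 fold change was 0.16 (95% interval -0.74 to 1.06), and -0.19 without control replicate 5. *Kdr* had 4.20, 4.73, 4.49, 5.93 and 2.65 TPM in the controls. Its mutant values were 3.92, 4.14, 5.24, 5.02 and 2.97 TPM, and replicate 5 was the lowest in both genotypes. The log2 fold change of *Kdr* was -0.03 (95% interval -0.64 to 0.58), and -0.20 without control replicate 5. The adjusted p-values from limma were 0.930 for *Flt1* and 0.979 for *Kdr*.

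The transporters at the capillary wall also varied widely between mice. *Slco1a4* encodes OATP1A4, which carries organic anions across the endothelium, and was measured at 14.1, 17.9, 7.02, 20.5 and 2.81 TPM in control replicates 1 to 5. The mutants had 14.4, 12.5, 18.3, 29.4 and 11.6 TPM. Control replicates 3 and 5 were below every mutant, and the other 3 controls lay among the mutants. Its log2 fold change was 0.68 (95% interval -0.40 to 1.76; limma adjusted p = 0.784), the largest value among the 10 genes in this fit. It was 0.23 without control replicate 5 and -0.10 without control replicates 3 and 5. *Abcb1a* encodes the efflux pump P-glycoprotein and had 6.56 to 10.3 TPM in the controls and 8.07 to 14.2 TPM in the mutants (log2 fold change 0.20, 95% interval -0.29 to 0.70). Its value was 0.10 without control replicate 5 and -0.02 without control replicates 3 and 5. *Ly6c1*, a GPI-anchored surface protein of endothelium and some blood cells, had 73.4 to 99.1 TPM in the controls and 60.3 to 101 TPM in the mutants (log2 fold change -0.10, 95% interval -0.40 to 0.21). None of the 7 endothelial genes had an unadjusted p under 0.05, and their exact two-sided permutation p-values ran from 0.13 to 0.89. These intervals span differences in both directions, so they do not show that the genotypes have equal levels.

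**Figure D2:**
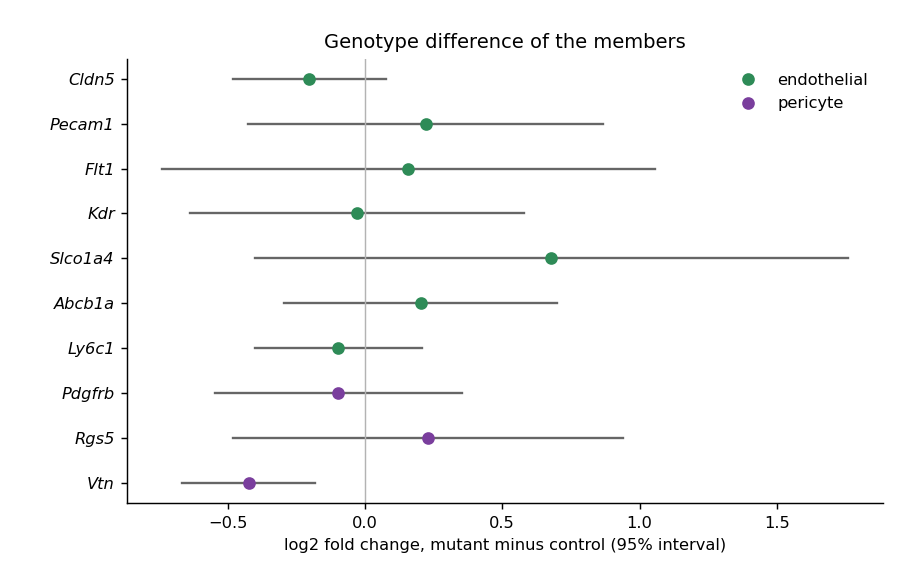
Log2 fold change (mutant minus control) of the 10 genes with 95% intervals from limma, endothelial genes in green and pericyte genes in purple. The interval of *Vtn* (-0.67 to -0.18) lies below 0, and the other 9 intervals include 0.

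Reads of close paralogs limit 3 of these values. Windows of 75 bases from the longest coding transcript of each gene were looked up in the transcripts of all other genes. For *Ly6c1*, 23.2% of 770 windows also occurred in another gene, mostly *Ly6c2*. For *Abcb1a* it was 11.4% of 4923 windows, mostly *Abcb1b*, and for *Slco1a4* 1.76% of 3749 windows. The other 7 genes had 0 such windows. *Ly6c2* was listed at 4.17 to 11.1 TPM, well below *Ly6c1* in every library, and *Abcb1b* at 0.0467 to 1.04 TPM.

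Across the libraries the 10 genes varied in different ways. With the genotype means removed, the Pearson correlation over 10 libraries had a median of 0.33 over the 45 pairs of genes and ran from -0.80 (*Vtn* with *Ly6c1*) to 0.87 (*Rgs5* with *Slco1a4*). The pericyte gene *Rgs5* varied with the endothelial genes *Pecam1* (0.85), *Flt1* (0.82) and *Slco1a4*, more closely than with its fellow pericyte genes *Pdgfrb* (0.42) and *Vtn* (0.03). *Pdgfrb*, on the plus strand of chromosome 18 at 61045150 to 61085061, had correlations of -0.35 to 0.51 with the other 9 genes. Much of the shared variation came with 1 library, since without control replicate 5 the median over the 45 pairs was 0.01. The genes whose pattern was most like the mean of the 7 endothelial genes, out of 10162 protein-coding genes with at least 5 TPM on average, were *Ercc5*, *Chm*, *Ermn*, *Hmgcll1* and *Trappc8*, with correlations of 0.97 to 0.99 over 10 libraries. Those most like the 3 pericyte genes were *Ctsh*, *Znhit2*, *Myt1l*, *Igdcc4* and *Tenm1*, with 0.94 to 0.96. These libraries share their scaling and dissection, and the correlations are a description.

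Control replicate 5 had the lowest value of the 10 libraries for 7 of the 10 genes, as it had for 38.8% of all genes tested. Its *Slco1a4* level was 2.81 TPM, while the remaining 9 libraries had 7.02 to 29.4 TPM. Its *Rgs5* level was 9.59 TPM, while they had 21.7 to 40.3 TPM. The exceptions were *Ly6c1*, *Vtn* and *Cldn5*, which lay 0.01, 0.08 and 0.21 below the median of the other controls on the log2 scale. These 3 have the shortest transcripts of the 10, with 844, 1744 and 1416 bp, while those of the other 7 genes have 3441 to 6895 bp. Among the protein-coding genes tested, the median log2 difference of this library to the other controls was -0.16 for transcripts under 1000 bp and -0.64 for those of 6000 bp or more. *Slco1a4* (-2.46), *Rgs5* (-1.77), *Flt1* (-1.66) and *Pecam1* (-1.10) were below the lower quartile of their length class. Across the 13547 protein-coding genes the correlation of this difference with log2 transcript length was only -0.08, and the part of length in these values was not tested.

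**Figure D3:**
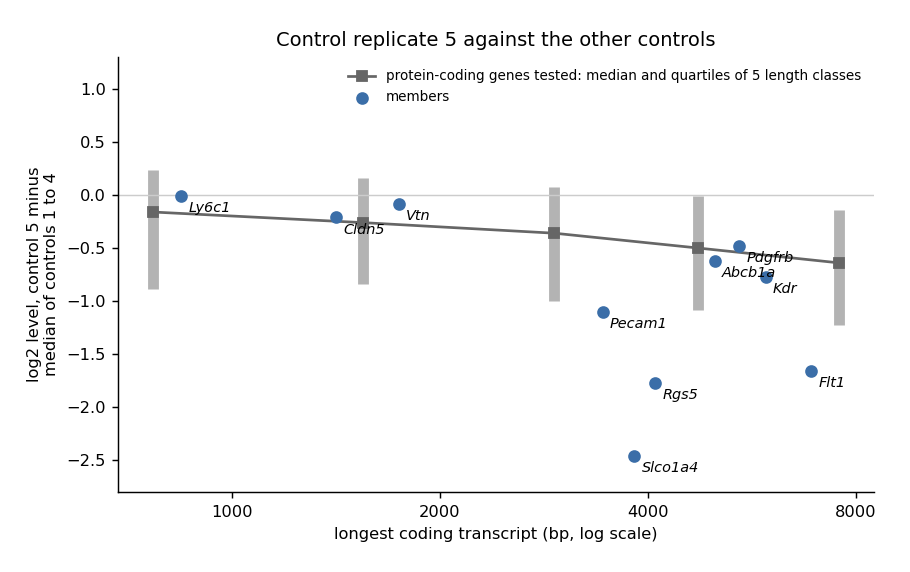
Log2 level in control replicate 5 minus the median of control replicates 1 to 4, against the length of the longest coding transcript on a log axis; blue points are the 10 genes, grey squares and bars the medians and quartiles of the protein-coding genes tested in 5 length classes. *Ly6c1*, *Vtn* and *Cldn5* lie near 0, and *Slco1a4* (-2.46) lies lowest.

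Other genes of the same cells were listed as context. Of 44 further endothelial genes 42 were tested, of which 19 had a positive and 23 a negative log2 fold change (median -0.07). Over all genes tested, 44.0% were below 0. None of the 42 passed the adjusted threshold. Without control replicate 5, 28 of the 42 were below 0 (median -0.15), as were 56.0% of all genes. Without control replicates 3 and 5 it was 33 of the 42 (median -0.21), as it was for 66.3% of all genes. At an unadjusted p under 0.05, 4 were lower and 2 higher, where 3.26% of all genes were lower and 2.29% higher. The largest of these differences was that of *Ly6a*, the surface protein Sca-1, at 3.97 ± 2.58 TPM (SD, n = 5) in the controls and 10.3 ± 4.59 TPM (SD, n = 5) in the mutants (log2 fold change 1.52, 95% interval 0.49 to 2.54). *Egfl7*, a secreted endothelial matrix protein, had 23.6 ± 3.85 and 16.9 ± 2.99 TPM (log2 fold change -0.48), and *Ly6e* had 138 ± 14.3 and 101 ± 29.2 TPM. Each of these 3 overlapped between the genotypes and had an adjusted p of 0.779 from limma. The abundant *Bsg*, which encodes basigin and is not limited to endothelial cells, had 1046 ± 46.3 and 981 ± 82.3 TPM. *Car4*, a carbonic anhydrase of capillaries, had 202 ± 44.7 and 146 ± 38.1 TPM.

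Genes of mural cells, the pericytes and smooth muscle cells around vessels, were mostly on the lower side in the mutants. All 16 further pericyte genes were tested, and 15 had a log2 fold change below 0 (median -0.24), against 44.0% of all genes tested. Without control replicate 5 it was 14 of the 16 (median -0.25), against 56.0% of all genes. None passed the adjusted threshold, and 1 had an unadjusted p under 0.05 with a lower value, *Ndufa4l2* at 8.66 ± 3.47 TPM in the controls and 4.71 ± 1.83 TPM in the mutants. *Kcnj8*, which encodes the pore of an ATP-sensitive potassium channel of pericytes, was measured at 3.58, 3.86, 3.56, 4.28 and 3.67 TPM in the controls and at 3.22, 2.43, 2.69, 1.78 and 2.90 TPM in the mutants. Its genotypes did not overlap (log2 fold change -0.55, 95% interval -1.11 to 0.01; limma adjusted p = 0.779), and 0.798% of all genes were lower in this way. *Mcam*, the most abundant gene of this list, had 53.6 ± 5.28 and 46.1 ± 4.87 TPM, and *Slc19a1* had 12.6 ± 6.99 and 12.4 ± 4.33 TPM.

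Of 10 genes of vascular smooth muscle, 6 reached the level for testing. All 6 had a log2 fold change below 0 (median -0.58, and -0.49 without control replicate 5), and 4 had an unadjusted p under 0.05. Of all genes tested, 44.0% were below 0 (56.0% without control replicate 5) and 3.26% were lower at this p. In all 5 mutants, 0.798% of all genes were lower than in any control. Without control replicates 3 and 5 the 6 genes stayed below 0 with a median of -0.38. In that fit 66.3% of all genes were below 0, and their median was -0.09, against 0.05 in the reported fit. *Myh11*, the smooth muscle myosin heavy chain, was lower in all 5 mutants than in any control, with 3.22 to 4.66 TPM in the controls and 2.23 to 2.83 TPM in the mutants (log2 fold change -0.60, 95% interval -1.13 to -0.08). *Tagln*, the actin-binding protein transgelin, had 14.4 ± 2.56 and 9.45 ± 2.53 TPM, *Myl9*, a myosin light chain, had 34.7 ± 5.73 and 27.0 ± 3.58 TPM, and *Tpm2*, a tropomyosin, had 18.1 ± 3.61 and 16.1 ± 2.63 TPM. The genotypes overlapped for *Tagln*, *Myl9* and *Tpm2*. The adjusted p from limma was 0.779 for *Myh11*, *Tagln* and *Myl9*, and no gene of the list passed.

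**Figure D4:**
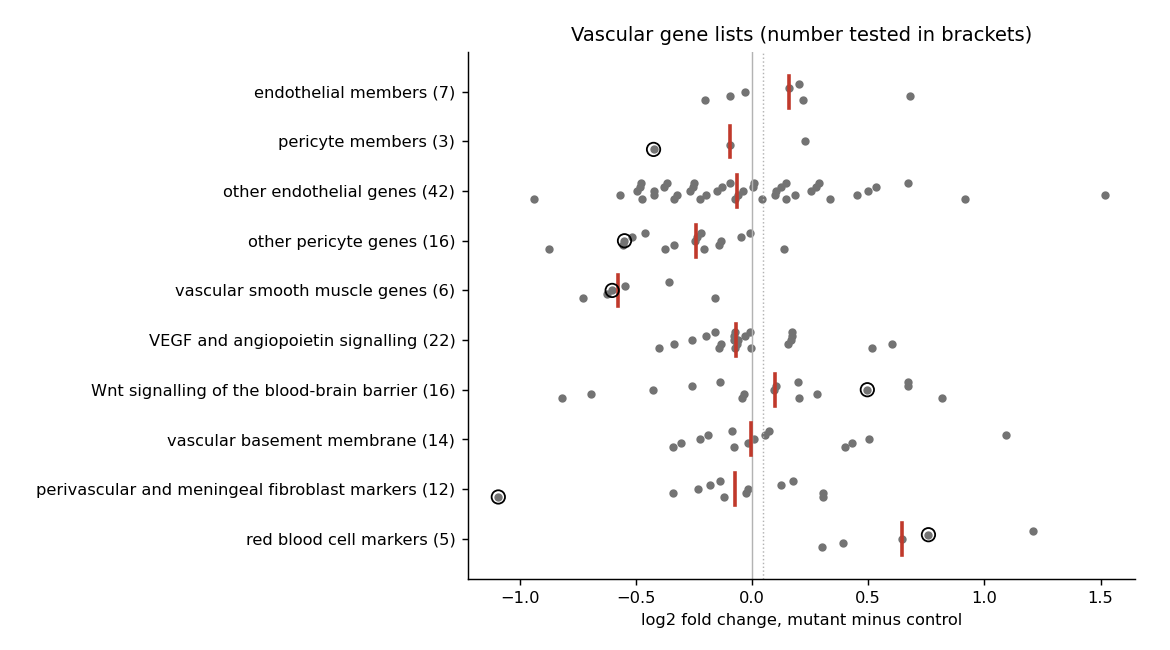
Log2 fold change (mutant minus control) of the genes of vascular lists, with 1 point per gene tested, a red line at the median of each list and a dotted line at the median of all genes tested (0.05); open circles mark genes whose genotypes did not overlap. All 6 smooth muscle genes and 15 of the 16 other pericyte genes lie below 0, and all 5 red blood cell genes above 0. Over all genes tested, 44.0% lie below 0 and 56.0% above.

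Among genes that signal to vessels or form their basement membrane, none passed the adjusted threshold. Over all genes tested, 56.0% were above 0 and 44.0% below, and 0.419% were higher in all 5 mutants than in any control. Of 24 genes of VEGF and angiopoietin signalling 22 were tested, 6 above 0 and 16 below (median -0.07). *Vegfa*, the ligand of both receptors, had 65.1 ± 7.93 TPM in the controls and 65.4 ± 10.8 TPM in the mutants (log2 fold change -0.003, 95% interval -0.31 to 0.30), and *Vegfb* had 83.6 ± 16.2 and 78.6 ± 11.8 TPM. *Hif1a*, which encodes an oxygen-regulated transcription factor, had 37.7 ± 15.3 and 53.1 ± 6.57 TPM, with 16.7 TPM in control replicate 5. *Unc5b*, a netrin receptor of endothelium and neurons, had 55.2 ± 8.54 and 45.8 ± 2.77 TPM, and *Epas1* had 25.0 ± 3.58 and 28.0 ± 3.32 TPM. Of 16 genes of Wnt signalling at the blood-brain barrier, 9 were above 0 and 7 below (median 0.10, and -0.04 without control replicate 5). *Ctnnb1*, the gene of beta-catenin, which nearly all cells express, was measured at 186, 173, 144, 194 and 148 TPM in the controls and at 202, 237, 222, 263 and 266 TPM in the mutants. Its genotypes did not overlap (log2 fold change 0.50, 95% interval 0.25 to 0.75; limma adjusted p = 0.779). *Tspan12*, a co-receptor for norrin, had 3.05 ± 1.36 and 5.10 ± 0.850 TPM, *Ndp*, the gene of norrin itself, had 9.73 ± 2.05 and 7.19 ± 1.44 TPM, and *Wnt7a* had 49.0 ± 3.97 and 44.5 ± 3.86 TPM. Of 14 genes of the vascular basement membrane, 7 were above 0 and 7 below (median -0.01), with *Sparc* at 716 ± 157 and 732 ± 86.4 TPM. *Agrn* had 49.7 ± 9.47 and 46.1 ± 1.35 TPM, *Lamb1* had 14.2 ± 3.53 and 18.5 ± 2.84 TPM, *Itgb1* had 24.6 ± 10.8 and 30.1 ± 4.13 TPM, and *Lama4* had 2.04 ± 1.15 and 3.74 ± 1.40 TPM. Control replicate 5 held the lowest value of *Agrn* (38.2 TPM), *Lamb1* (10.2 TPM), *Itgb1* (9.49 TPM) and *Lama4* (0.221 TPM).

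Markers of other cells near the vessels are given beside these values, and none passed the adjusted threshold. Over all genes tested, 44.0% were below 0 and 56.0% above, and 56.0% were below 0 without control replicate 5. In all 5 mutants, 0.798% of all genes were lower than in any control and 0.419% were higher. The 12 markers of perivascular and meningeal fibroblasts summed to 80.6 to 154 TPM in the controls and to 94.2 to 116 TPM in the mutants, and 4 were above 0 and 8 below (median log2 fold change -0.07). Without control replicate 5, 10 of the 12 were below 0 (median -0.20), while the median of all genes was -0.04. Without control replicates 3 and 5 it was 11 of the 12 (median -0.36), while 66.3% of all genes were below 0 (median -0.09). *Slc6a13*, a GABA transporter of meningeal and perivascular fibroblasts, was lower in all 5 mutants than in any control, with 9.59 to 14.4 TPM against 3.33 to 8.15 TPM (log2 fold change -1.09, 95% interval -1.66 to -0.53; limma adjusted p = 0.779). The other named markers overlapped, with *Dcn* at 17.5 ± 8.50 and 17.3 ± 0.779 TPM, *Igf2* at 33.4 ± 8.60 and 28.8 ± 5.48 TPM, *Slc6a20a* at 11.9 ± 3.11 and 14.6 ± 3.04 TPM and *Col1a1* at 5.77 ± 1.49 and 4.58 ± 1.42 TPM. All 5 red blood cell genes were above 0 (median 0.65, and 0.54 without control replicate 5). At an unadjusted limma p under 0.05, 4 of the 5 were higher, where 2.29% of all genes were higher. Their sum was 1065 to 1795 TPM in the controls and 1536 to 2698 TPM in the mutants. *Hbb-bs*, a beta-globin gene with a near-identical neighbour, had 386 to 763 TPM in the controls and 772 to 1350 TPM in the mutants, without overlap. The 6 markers of perivascular macrophages summed to 3.16 to 11.5 TPM in the controls and 1.65 to 2.96 TPM in the mutants, so that the sums did not overlap. Of the 3 macrophage markers tested, 2 had a log2 fold change below 0. The median of the 3 was -1.86, which is the value of *Lyve1*, and -1.69 without control replicate 5. *Lyve1* reached 0.5 TPM in 5 libraries, mainly controls, and *Pf4* in 6, so both lie near the filter on low values. *Lyve1* had 1.71 ± 1.17 and 0.388 ± 0.242 TPM and *Pf4* had 2.38 ± 2.58 and 0.520 ± 0.738 TPM, both overlapping, while *Mrc1* had 0.703 ± 0.525 and 0.935 ± 0.316 TPM. The 8 markers of choroid plexus, whose capillaries differ from those of the cerebellum, summed to 1803 to 3425 TPM in the controls and 1942 to 3419 TPM in the mutants, with 5 of the 7 tested above 0 (median 0.21, and -0.16 without control replicate 5). The 7 genes of astrocyte endfeet, which wrap the capillaries, summed to 257 to 444 TPM and to 349 to 410 TPM, with 6 of 7 above 0 (median 0.12, and -0.06 without control replicate 5). The part of these cells and of blood in the values of the 10 genes was not tested, and whether vessels were rinsed before extraction is not given in the sources used here.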

How the data were processed

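Whole cerebella of 5 control and 5 *Dscam* mutant mice were taken at P21, and directional RNA libraries were sequenced with 151 cycles. The deposited TPM per gene were made by the authors with Trimmomatic (0.36), HISAT2 (2.2.0, on GRCm38) and StringTie (1.3.6). The annotation release and the strand setting are not given in the sources used here. BALB/c mice differ from the strain of the reference genome. Read counts were not analysed here.

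Of the listed genes, 17168 had at least 0.5 TPM in at least 5 libraries and were tested. Log2(TPM + 0.1) was modelled by genotype alone in limma (3.58.1, R 4.3.3) with a variance trend. Adjusted p-values are those of Benjamini and Hochberg across these genes, and 0.05 was the threshold. For single genes an exact permutation test, two-sided, was run over the 252 divisions into 5 and 5. The added 0.1 TPM draws fold changes of low genes toward 0. Gene positions and transcripts are from GENCODE M21, which lacked 105 of the identifiers, and promoters are from RefSeq (GRCm38.p6). Other scalings, filters, added values, covariates and weights, and fits without single libraries, are in the closing section.

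The members and gene lists were chosen with earlier results of these data known. Named are all 10 members, *Dscam*, paralogs that could share reads, the genes most like the members and, from each vascular or fibroblast list, the 3 with the lowest p and the 2 of highest level. Markers of other cells are given as sums with examples by the same rule, beside which *Hoxa5* and *Hoxb5* were named after their values were seen. The p-values measure the spread between these mice.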

Additional observations from a re-analysis of the deposited data

How the results depend on the processing

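Of the log2 fold changes of the 10 genes, those of *Cldn5*, *Ly6c1* and *Vtn* kept their sign in all 24 alternatives, with ranges over them of -0.25 to -0.13, -0.19 to -0.004 and -0.48 to -0.38. No alternative brought any of the 10 past the adjusted threshold, and for *Vtn* the adjusted p ranged from 0.490 to 0.919. All 13 mitochondrial mRNAs had a log2 fold change above 0 (median 0.406, and 0.215 without control replicate 5), as had 56.0% of all genes tested. A covariate for their level therefore differs between the genotypes in these mice. With this covariate for mitochondrial mRNA, signs turned for *Pecam1* (-0.138), *Flt1* (-0.476), *Slco1a4* (-0.135), *Abcb1a* (-0.030) and *Rgs5* (-0.335). Without control replicates 3 and 5 they turned for *Pecam1* (-0.060), *Flt1* (-0.328), *Slco1a4* (-0.096), *Abcb1a* (-0.017) and *Rgs5* (-0.284). With array weights they turned for *Flt1* (-0.022) and *Rgs5* (-0.047). The all-gene median, 0.048 in the reported fit, was -0.104, -0.094 and -0.031 under these 3. When 1 library was left out, the ranges were -0.013 to 0.356 for *Pecam1*, -0.186 to 0.451 for *Flt1*, -0.196 to 0.090 for *Kdr*, 0.227 to 0.934 for *Slco1a4*, 0.080 to 0.282 for *Abcb1a*, -0.204 to 0.020 for *Pdgfrb* and -0.110 to 0.405 for *Rgs5*. The lowest values came without control replicate 5, except for *Abcb1a* (mutant replicate 3). *Kdr* turned above 0 without control replicate 2 (0.007), control replicate 4 (0.087) or mutant replicate 5 (0.090). The median of the 7 endothelial genes, 0.157, ranged from -0.104 to 0.256 in this way and that of the 3 pericyte genes, -0.097, from -0.204 to 0.020. Both lay lower with the mitochondrial covariate (-0.185 and -0.335), and without control replicates 3 and 5 they were -0.169 and -0.284. The cause of these changes was not tested. Over all genes, limma called 0 genes, with 953 at an unadjusted p under 0.05. It called 4 without the variance trend, with 929 at that p (*Vipr1*, *Mir3102*, *Gm44518* and *Gm5781*), and 0 to 1 when 1 library was left out (*1500004A13Rik* without mutant replicate 4, with 704). These 5 were named after their values were seen, and none is a vascular gene of the lists. The level of *Xist* as a covariate was chosen after seeing the data and turned no sign. *Xist* was at 88.3 TPM in control replicate 1, 65.6 TPM in mutant replicate 5 and 0 to 0.0865 TPM in the other libraries. This covariate thus rests on 1 library per genotype. Libraries with the same replicate number did not deviate together (correlations of 0.008 to 0.098), and the replicate block called 0 genes, with 1094 at an unadjusted p under 0.05, and left the 10 log2 fold changes as they were. The depth of the libraries is unknown, so counting error could not be given.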
